A study of Homo sapiens with 35 samples.

Results

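The collagen genes of BE(2)-C neuroblastoma cells are described here across treatment with retinoic acid and a histone deacetylase inhibitor. They were taken as every gene whose symbol reads COL, a number, A and a number, from array probe sets that name a single gene, with the brightest probe set standing for each gene. This gave 32 of the 11940 genes measured, from 71 probe sets. BE(2)-C is a clonal human neuroblastoma line with extra copies of MYCN, so all arrays come from 1 clone grown in serum. Cells received the vehicle DMSO, all-trans retinoic acid at 5 uM (ATRA), valproic acid at 1 mM (VPA), which inhibits histone deacetylases, or ATRA and VPA together at those doses (ATRA+VPA). RNA was taken after 6, 24 or 72 h, which makes 12 groups on 35 arrays. Each group held 3 arrays, except DMSO at 72 h with 2. The labels speak of treatment in triplicate but not of separate cultures, so each p-value measures only the spread between these samples.

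Collagens are mostly secreted proteins whose chains wind around each other into a rope-like helix. Fibrillar collagens pack into the tensile fibrils of connective tissue, and collagen IV forms the sheet-like network of basement membranes, on which neurites and Schwann cells grow. Collagen VI forms beaded filaments, the fibril-associated collagens (FACIT) decorate fibrils, and the multiplexin COL18A1 carries the endostatin fragment. COL13A1 is a transmembrane collagen that sits at neuromuscular junctions and other adhesion sites. Neuroblastoma cells can take on a more neuronal state or a more mesenchymal, matrix-producing one.

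RefSeq promoters (GRCh38.p14, the 250 bases before a transcription start) were found for 23 of the 32 genes, as 34 starts. The following upstream stretches are shown for the member that rose most with ATRA (COL13A1), the member that moved in opposite directions with ATRA and VPA (COL5A1), a collagen VI member that rose with VPA (COL6A2) and the interval shared by the divergent genes COL4A1 and COL4A2. Capitals mark matches on either strand to the GC box (GGGCGG), the box known by its letters as CCAAT, or the TATA box (TATAAA), and every stretch is printed on the plus strand, 5′ to 3′.
COL13A1 (chr10:69801656-69801905): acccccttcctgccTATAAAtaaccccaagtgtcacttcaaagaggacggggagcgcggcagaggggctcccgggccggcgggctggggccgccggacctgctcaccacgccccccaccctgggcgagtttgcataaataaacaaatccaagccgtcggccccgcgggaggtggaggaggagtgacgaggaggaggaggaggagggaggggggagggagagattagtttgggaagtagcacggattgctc
COL5A1 (chr9:134641553-134641802, the first of its 2 listed starts): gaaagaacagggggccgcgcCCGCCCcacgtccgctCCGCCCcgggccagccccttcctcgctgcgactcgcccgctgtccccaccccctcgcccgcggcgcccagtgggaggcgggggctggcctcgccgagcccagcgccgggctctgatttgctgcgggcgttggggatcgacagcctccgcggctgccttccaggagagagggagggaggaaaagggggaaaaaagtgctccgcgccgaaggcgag
COL6A2 (chr21:46097862-46098111): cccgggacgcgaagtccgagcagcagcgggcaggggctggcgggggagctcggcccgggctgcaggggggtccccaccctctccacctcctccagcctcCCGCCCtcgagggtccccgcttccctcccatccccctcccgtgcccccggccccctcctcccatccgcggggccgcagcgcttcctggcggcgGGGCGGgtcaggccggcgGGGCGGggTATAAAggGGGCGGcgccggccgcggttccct
COL4A1 and COL4A2 (chr13:110307158-110307283): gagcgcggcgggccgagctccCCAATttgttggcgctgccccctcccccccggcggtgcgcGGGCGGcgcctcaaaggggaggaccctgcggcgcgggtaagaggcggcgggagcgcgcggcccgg
The COL13A1 stretch held 1 TATAAA match, the COL5A1 stretch 2 GGGCGG matches, and the COL6A2 stretch 4 GGGCGG matches and 1 TATAAA match. In the 126 bases between the COL4A1 start, read leftwards, and the COL4A2 start, read rightwards, there was 1 CCAAT and 1 GGGCGG match. Of the 34 collagen promoters, 55.9% held GGGCGG, against 42.6% of all 35116 promoters. For CCAAT the shares were 29.4% and 32%, and for TATAAA 17.6% and 10.7%. CACGTG was in 0 of the 34 collagen promoters and in 6.34% of all promoters. Exact forms of the spaced direct repeats that retinoic acid receptors are known to bind were also in 0 of the 34, but such exact forms were in at most 0.00854% of all promoters. These are letter matches anywhere in a short window, whatever their distance from the start. The TATAAA match lies at the end far from the start in the COL13A1 stretch and close to the start in the COL6A2 stretch. None of the motifs holds another, and a missing match says only that these letters are not in the window. Some collagen genes lie side by side in the genome. COL6A1 and COL6A2 are neighbours on chromosome 21, COL3A1 and COL5A2 on chromosome 2, and COL4A1 and COL4A2 on chromosome 13.

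Values are array intensities on a linear scale without detection calls. The highest lower quartile of the arrays, 23.6, is used below as a low level: a gene with means at or under it may be no brighter than background, and its fold changes hang on the pseudocount. The number of arrays and the signal over background limit the precision. DMSO 24 h replicate 1 stood apart, with a residual SD of 0.234 on the log2 scale against 0.0827 to 0.171 on the other arrays, so results at 24 h are also given without it where they turn on it. The log2 3'/5' ratio of control probe sets, a sign of RNA and labelling quality, averaged 1.06 ± 0.17 (SD, n = 2) with DMSO at 72 h and 1.82 ± 0.17 (SD, n = 3) with ATRA at 72 h. It was 1.09 ± 0.16 with VPA and 1.36 ± 0.07 with ATRA+VPA at that time (SD, n = 3). Beyond fits that took this ratio as a covariate, its part in the results at 72 h was not tested.

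Of the 32 collagen genes, 25 had a mean over the low level in at least 1 group and 15 in every group. COL4A3, COL4A4, COL8A1, COL9A1, COL11A1, COL15A1 and COL19A1 were at or under it in all 12 groups. Against DMSO of the same time, 12 collagen genes passed an adjusted p of 0.05 (limma) in at least 1 of the 9 comparisons. These were 3 of 9 fibrillar, 0 of 6 basement membrane, 3 of 4 beaded filament and anchoring, 4 of 7 FACIT, 0 of 3 short-chain network, 1 of 1 transmembrane and 1 of 2 multiplexin genes. The other 20 genes had log2 changes between -0.41 and 0.42. How many of all genes passed in at least 1 of the 9 comparisons was not counted. Whether these counts by class are unusual therefore cannot be told. Of 288 tests, 36 were calls of a higher level and 7 of a lower level, 14.9% in all, against 16.2% of all 107460 gene tests in the same comparisons (8.88% higher and 7.27% lower). In bulk RNA, more RNA per cell and more cells of an expressing kind cannot be told apart.

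**Figure D1:**
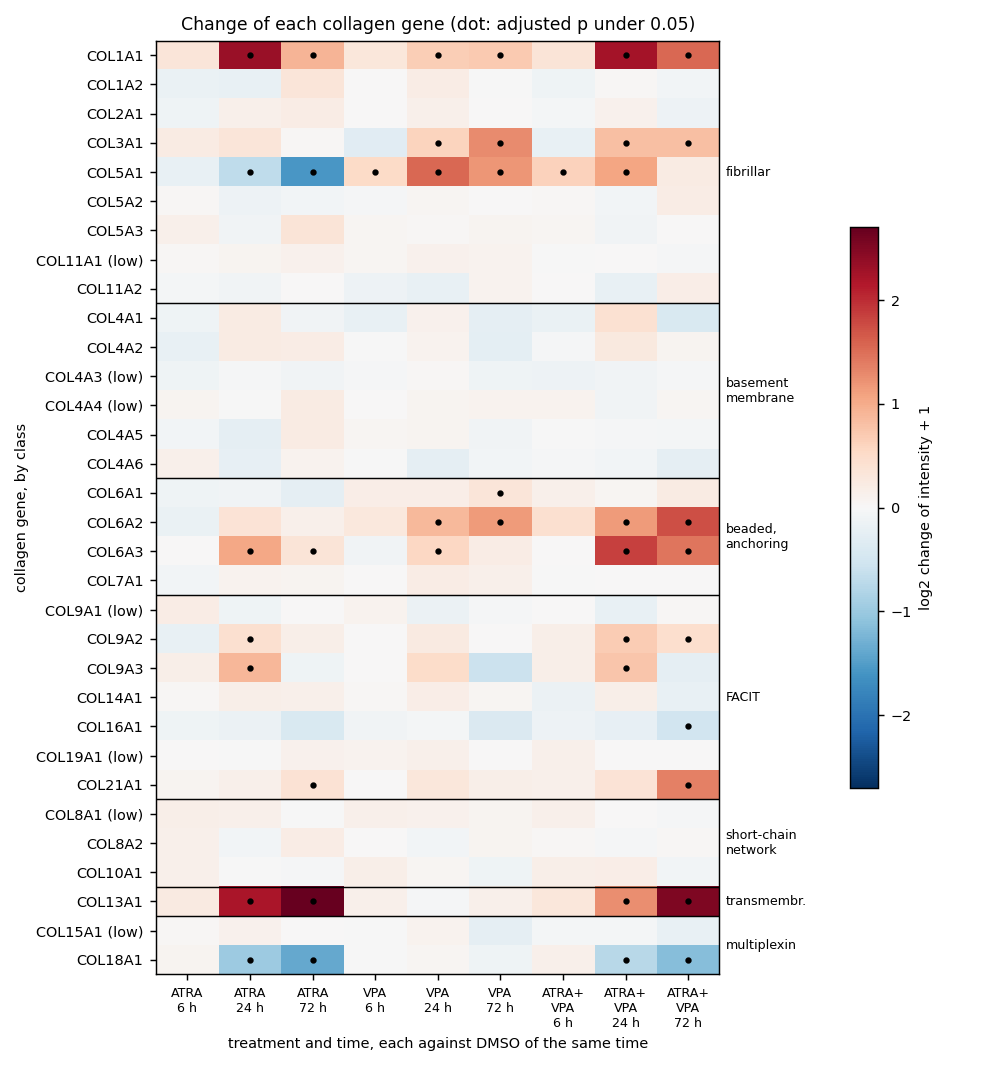
Log2 change of intensity plus 1 for each of the 32 collagen genes (rows, grouped by class) in each treatment against DMSO of the same time (columns); colour gives the change and a dot marks an adjusted p under 0.05. COL13A1, COL1A1 and the collagen VI chains COL6A2 and COL6A3 carry most of the rises, COL18A1 and COL5A1 hold the falls with ATRA, and the 6 basement membrane genes have no dot. The word low marks genes at or under the low level in every group.

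With ATRA at 6 h, 0 of 32 collagen genes passed, while 1.62% of all genes did (1.03% higher and 0.586% lower), and 2 collagen genes had an unadjusted p under 0.05. At 24 h, 5 rose and 2 fell (18.5% of all genes passed, 12.5% higher and 6.03% lower). At 72 h, 4 rose and 2 fell (30.9%, with 10.7% higher and 20.2% lower). With VPA, 1 collagen gene rose and 0 fell at 6 h (11.2% of all genes passed, 6.46% higher and 4.7% lower). At 24 h 5 rose and 0 fell (12.2%, with 9.66% higher and 2.49% lower), and at 72 h again 5 rose and 0 fell (6.67%, with 4.51% higher and 2.15% lower). With ATRA+VPA, 1 rose and 0 fell at 6 h (11.6%, with 6.73% higher and 4.87% lower), 8 rose and 1 fell at 24 h (21.2%, with 13.5% higher and 7.79% lower), and 7 rose and 2 fell at 72 h (31.5%, with 14.9% higher and 16.6% lower). As shares of the 32 genes the calls in either direction were 0%, 21.9% and 18.8% with ATRA, 3.12%, 15.6% and 15.6% with VPA, and 3.12%, 28.1% and 28.1% with ATRA+VPA. These shares lay on both sides of those of all genes. A second quantile normalization moved the split of all genes, from 1493 higher and 720 lower to 1063 and 1198 with ATRA at 24 h, from 1277 and 2413 to 1524 and 1793 with ATRA at 72 h, from 1154 and 297 to 991 and 449 with VPA at 24 h, and from 1606 and 930 to 1333 and 1352 with ATRA+VPA at 24 h. The collagen genes then gave 5 rises and 2 falls, 3 and 3, 4 and 0, and 8 and 1. The median log2 change of the collagen genes was between 0.02 and 0.11 in these 9 comparisons, against -0.02 to 0.05 over all genes, so most members stayed close to their DMSO level. Without any 1 of the 5 arrays compared, the count with VPA at 72 h was 3. In a fit of only the arrays compared, the count with VPA at 24 h was 1, the call of COL5A1. Without DMSO 24 h replicate 1, the counts at 24 h were 4 rises and 2 falls with ATRA, 3 rises with VPA, and 8 rises and 1 fall with ATRA+VPA.

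Among the 9 fibrillar collagens, COL1A1, COL3A1 and COL5A1 moved. At 72 h 1 rose and 1 fell with ATRA, 3 rose with VPA and 2 rose with ATRA+VPA. Of all genes, 10.7% rose and 20.2% fell with ATRA at that time. The shares were 4.51% and 2.15% with VPA, and 14.9% and 16.6% with ATRA+VPA. Class medians were 0.12, 0.09 and 0.18 on the log2 scale, against 0, -0.02 and -0.01 over all genes. COL1A1 encodes the main chain of collagen I, the chief collagen of skin and bone. At 24 h its intensity was 27.6, 31.6 and 17.3 with DMSO, 122, 138 and 126 with ATRA, 43.8, 50.5 and 29.0 with VPA, and 151, 96.5 and 121 with ATRA+VPA. All ATRA-containing arrays lay far above all DMSO arrays, while the VPA arrays overlapped with them. COL1A1 rose 5.01-fold with ATRA at 24 h (log2 change 2.33 ± 0.18 (SE), adjusted p = 5.6e-11) and 4.72-fold with ATRA+VPA (2.24 ± 0.18, adjusted p = 1.1e-10). At 72 h the values were 21.4 and 19.8 with DMSO, 40.9, 32.8 and 46.4 with ATRA, 34.1, 35.1 and 34.0 with VPA, and 56.4, 66.3 and 65.5 with ATRA+VPA. Every treated array was above both DMSO arrays, and the combination was the highest. The rise at 72 h was 1.89-fold with ATRA (log2 0.91 ± 0.20, adjusted p = 0.00088) and 2.95-fold with ATRA+VPA (1.56 ± 0.20, adjusted p = 4.4e-07), from a DMSO mean of 20.6, under the low level. With VPA the log2 change was 0.67 at 24 h (adjusted p = 0.013) and 0.71 at 72 h (adjusted p = 0.03). The call at 24 h was lost without DMSO 24 h replicate 3 or without VPA 24 h replicate 1 or 2, and the call at 72 h without any 1 of the 5 arrays. With only the arrays compared, the VPA call at 24 h was lost as well. COL1A2, which encodes the partner chain of collagen I, had group means between 19.4 and 30.6 and passed in 0 of the 9 comparisons.

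COL3A1 encodes the chain of collagen III, found with collagen I in distensible tissues. At 72 h its intensity was 74.7 and 97.0 with DMSO, 119, 72.1 and 76.1 with ATRA, 252, 166 and 212 with VPA, and 139, 162 and 153 with ATRA+VPA. The VPA and ATRA+VPA arrays lay above both DMSO arrays, and the ATRA arrays overlapped with them. COL3A1 rose 2.42-fold with VPA at 72 h (log2 1.27 ± 0.20, adjusted p = 5.8e-05) and 1.76-fold with ATRA+VPA (0.82 ± 0.20, adjusted p = 0.0016), the latter not called without DMSO 72 h replicate 1. At 24 h the values were 54.7, 78.7 and 81.2 with DMSO, 93.7, 104 and 129 with VPA, and 122, 131 and 122 with ATRA+VPA. The rise of 0.61 on the log2 scale with VPA (adjusted p = 0.021) was lost without DMSO 24 h replicate 1, at 0.43 (adjusted p = 0.15), or without VPA 24 h replicate 3. It was also lost with only the arrays compared. The rise with ATRA+VPA was 0.82 (adjusted p = 0.001). With ATRA alone COL3A1 did not pass at any time, with changes of 0.23, 0.33 and 0.03 at 6, 24 and 72 h.

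COL5A1 encodes a chain of collagen V, which sets fibril diameter, and it was the member with opposite responses to the single agents. At 6 h its intensity was 169, 157 and 160 with DMSO, 140, 152 and 132 with ATRA, 222, 221 and 256 with VPA, and 303, 241 and 218 with ATRA+VPA. At 24 h it was 157, 175 and 211 with DMSO, 111, 117 and 106 with ATRA, 539, 583 and 481 with VPA, and 438, 346 and 359 with ATRA+VPA. At 72 h it was 233 and 217 with DMSO, 65.7, 65.5 and 98.9 with ATRA, 515, 536 and 489 with VPA, and 266, 268 and 254 with ATRA+VPA. At every time the ATRA arrays lay below all DMSO arrays and the VPA arrays above them, and at 72 h the combination lay just above DMSO. The ATRA change at 6 h was small, at -0.19 on the log2 scale, and did not pass. ATRA lowered COL5A1 by 0.68 on the log2 scale at 24 h (log2 change -0.68 ± 0.13, adjusted p = 0.00026) and 2.96-fold at 72 h (-1.57 ± 0.15, adjusted p = 1.2e-09). VPA raised it at 6 h (0.52 ± 0.13, adjusted p = 0.0073, not called without VPA 6 h replicate 3), 2.95-fold at 24 h (1.56 ± 0.13, adjusted p = 9e-10) and 2.28-fold at 72 h (1.19 ± 0.15, adjusted p = 1.4e-06). With both agents it was higher at 6 h (0.63, adjusted p = 0.00097) and 24 h (1.07, adjusted p = 2.5e-07), and at 72 h the change was 0.22 ± 0.15 (adjusted p = 0.28). COL5A1 was thus the single collagen gene called with VPA at 6 h and with ATRA+VPA at 6 h. Its partner chains COL5A2 and COL5A3, and the fibrillar genes COL2A1, COL11A1 and COL11A2, passed in 0 of the 9 comparisons, with means between 16.6 and 37.0.

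**Figure D2:**
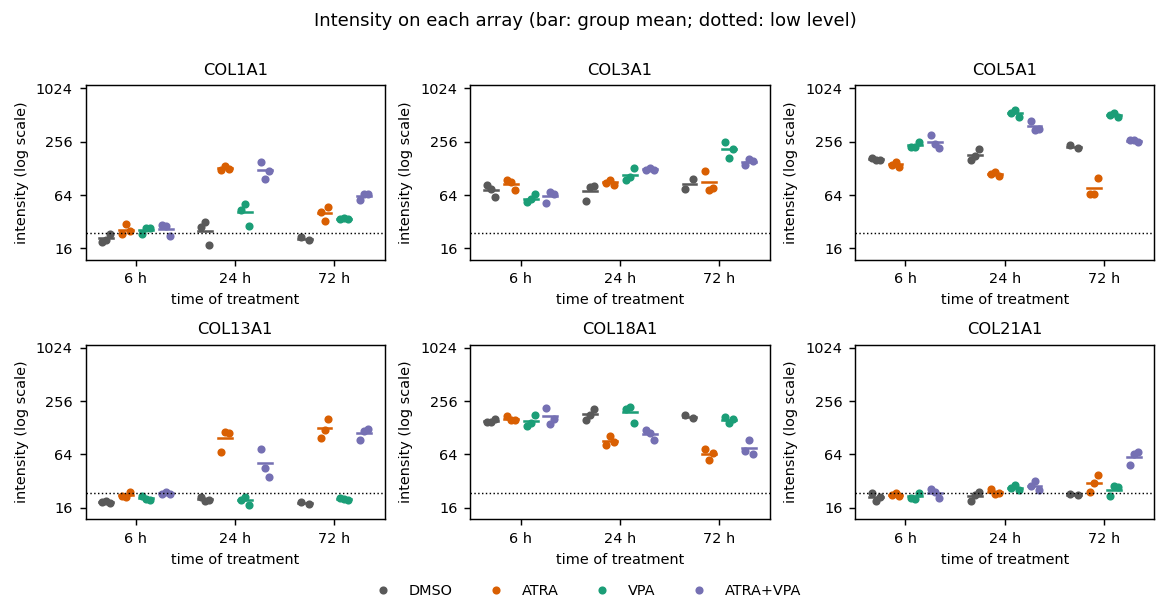
Intensity of COL1A1, COL3A1, COL5A1, COL13A1, COL18A1 and COL21A1 on every array (points, log axis) by time and treatment, with the group mean as a bar and the low level of 23.6 as a dotted line. COL5A1 splits at 24 and 72 h into ATRA below and VPA above DMSO, COL13A1 is at or under the low level in every DMSO and VPA array, and COL18A1 is lower in all ATRA-containing arrays from 24 h.

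Of the 6 basement membrane genes, 0 passed in the 54 tests against DMSO, and 6 of these tests had an unadjusted p under 0.05. Of all gene tests in the same comparisons, 16.2% passed. COL4A3 and COL4A4 were at or under the low level in every group. Changes of the 6 genes ran from -0.41 to 0.42. COL4A1 and COL4A2 encode the ubiquitous chains of collagen IV and were measured well over the low level. COL4A2 was at 169 and 152 with DMSO at 72 h, 172, 208 and 170 with ATRA, 127, 124 and 151 with VPA, and 170, 172 and 167 with ATRA+VPA, so its VPA arrays lay just under both DMSO arrays, a difference that did not pass (log2 -0.26, adjusted p = 0.32). COL4A1 was at 88.5 and 87.8 with DMSO, 81.2, 87.8 and 80.1 with ATRA, 83.3, 69.7 and 71.1 with VPA, and 61.5, 69.6 and 68.0 with ATRA+VPA. The combination arrays lay below DMSO at 72 h, with a log2 change of -0.41 ± 0.18 (adjusted p = 0.094). This difference was called after a second quantile normalization (-0.45, adjusted p = 0.019), with array weights (-0.39, adjusted p = 0.011) and with only the arrays compared (-0.41, adjusted p = 0.011). The other COL4A1 probe set, at a mean of 32.8, changed by 0.05 in that comparison and was not called. At 24 h with ATRA+VPA, COL4A1 changed by 0.42 (adjusted p = 0.064), by 0.60 without DMSO 24 h replicate 2 (adjusted p = 0.011), by 0.56 without replicate 3 (adjusted p = 0.021) and by 0.11 without replicate 1, in which it read 48.2 against 96.7 and 90.9 in the other DMSO arrays. COL4A2 changed by 0.29 with ATRA+VPA at 24 h with array weights (adjusted p = 0.01) and by 0.36 without DMSO 24 h replicate 3 (adjusted p = 0.047), while in the fit used here it did not pass there. It did pass with a rise of 0.34 ± 0.12 when ATRA was added to VPA at 72 h (adjusted p = 0.036), lost without 5 of the 6 arrays compared in turn. COL4A5 and COL4A6, the chains linked to Alport syndrome and its leiomyomatosis form, had group means between 22.6 and 32.9.

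Collagen VI assembles from several chains into beaded filaments around cells. Of the 4 genes of this class, COL7A1 included, 1 rose with ATRA, 2 with VPA and 2 with ATRA+VPA at 72 h. Rises over all genes were 10.7%, 4.51% and 14.9%. Class medians were 0.11, 0.26 and 0.84, against 0, -0.02 and -0.01 over all genes. COL6A3 encodes the longest chain of collagen VI. At 24 h its intensity was 29.9, 46.6 and 42.4 with DMSO, 80.9, 87.7 and 77.6 with ATRA, 55.2, 56.4 and 62.5 with VPA, and 148, 147 and 131 with ATRA+VPA. The groups did not overlap and stood in the order DMSO, VPA, ATRA and ATRA+VPA. COL6A3 rose 2.08-fold with ATRA (log2 1.05 ± 0.11, adjusted p = 3.6e-08), 1.48-fold with VPA (0.56 ± 0.11, adjusted p = 0.0011) and 3.57-fold with ATRA+VPA (1.84 ± 0.11, adjusted p = 2.8e-13). Without DMSO 24 h replicate 1 these were 0.87, 0.38 and 1.65 on the log2 scale, each still called. The VPA call was lost with only the arrays compared. At 72 h it was at 41.4 and 48.6 with DMSO, 53.7, 60.1 and 57.8 with ATRA, 49.9, 54.2 and 50.0 with VPA, and 119, 126 and 128 with ATRA+VPA. The combination stood far above each single agent. The rise at 72 h was 2.73-fold with ATRA+VPA (1.45 ± 0.13, adjusted p = 2.6e-10), against 0.34 with ATRA (adjusted p = 0.042) and 0.19 with VPA (adjusted p = 0.49). The ATRA call was lost without DMSO 72 h replicate 1, ATRA 72 h replicate 2 or ATRA 72 h replicate 3. The interaction, the combined change less the sum of the single changes, was 0.92 ± 0.17 (adjusted p = 0.0022).

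COL6A2 followed VPA more than ATRA. At 72 h its intensity was 51.4 and 47.0 with DMSO, 54.6, 55.2 and 53.5 with ATRA, 93.2, 117 and 125 with VPA, and 153, 142 and 213 with ATRA+VPA. The VPA and ATRA+VPA arrays were clear of the others. COL6A2 rose 2.23-fold with VPA (log2 1.16 ± 0.23, adjusted p = 0.0013) and 3.34-fold with ATRA+VPA (1.74 ± 0.23, adjusted p = 5.6e-07), while the ATRA change was 0.14 (adjusted p = 0.68). At 24 h it was at 30.8, 61.7 and 64.3 with DMSO, 57.5, 66.9 and 68.3 with ATRA, 104, 81.5 and 92.3 with VPA, and 110, 115 and 112 with ATRA+VPA. The lowest of these is DMSO 24 h replicate 1. The log2 rise at 24 h was 0.88 with VPA (adjusted p = 0.0044) and 1.16 with ATRA+VPA (adjusted p = 9.7e-05). Without that array the values were 0.54 (adjusted p = 0.057) and 0.83 (adjusted p = 0.0017). With only the arrays compared, the VPA call at 24 h was also lost. COL6A1 was at 754 and 728 with DMSO at 72 h, 624, 648 and 603 with ATRA, 939, 942 and 908 with VPA, and 832, 910 and 876 with ATRA+VPA. Its VPA arrays lay above DMSO and its ATRA arrays below, but the changes were small. The VPA rise was 0.33 ± 0.10 (adjusted p = 0.045), not called without any 1 of the 5 arrays. The ATRA change was -0.25 (adjusted p = 0.063). COL7A1, the anchoring fibril collagen of skin, passed in 0 of the 9 comparisons.

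**Figure D3:**
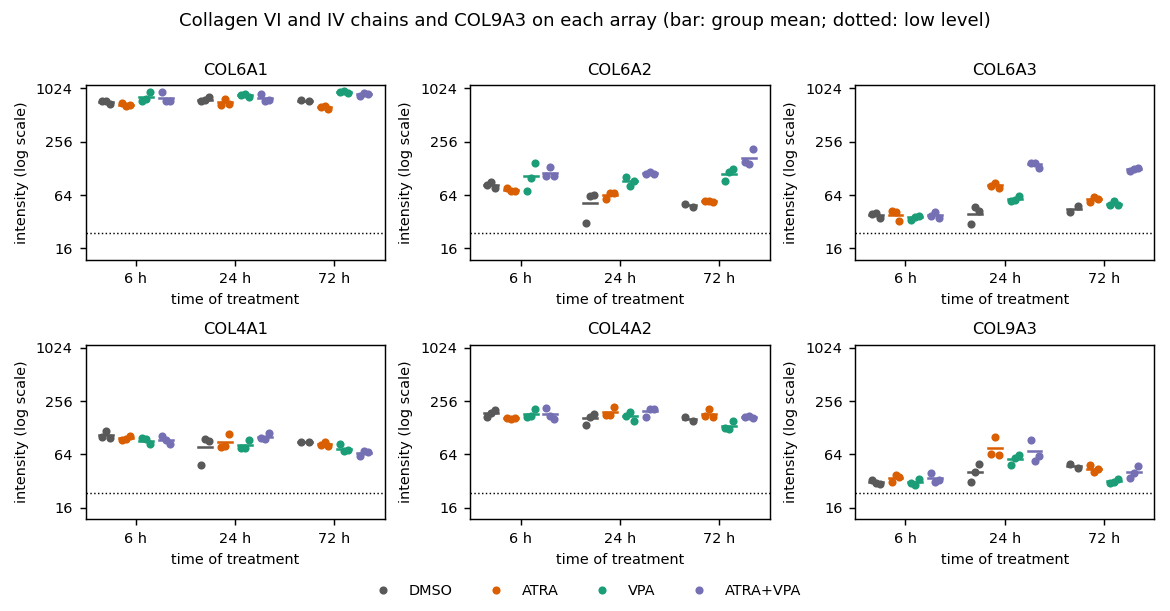
Intensity of the collagen VI chains COL6A1, COL6A2 and COL6A3, the collagen IV chains COL4A1 and COL4A2 and of COL9A3 on every array (points, log axis) by time and treatment, with group means as bars and the low level as a dotted line. COL6A3 with ATRA+VPA stands above every other group at 24 and 72 h, while the COL4A2 groups stay within 134 to 196.

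Among the FACIT genes, COL9A2, COL9A3, COL16A1 and COL21A1 had calls. COL9A2 and COL9A3 encode chains of collagen IX, which coats cartilage fibrils. At 24 h COL9A3 was at 31.5, 40.7 and 49.6 with DMSO, 65.2, 99.7 and 63.7 with ATRA, 48.2, 59.0 and 62.8 with VPA, and 92.5, 54.1 and 61.6 with ATRA+VPA. The ATRA and ATRA+VPA arrays were above all DMSO arrays and the VPA arrays overlapped with them. COL9A3 rose 1.85-fold with ATRA (log2 0.89 ± 0.17, adjusted p = 0.00027) and 1.68-fold with ATRA+VPA (0.74 ± 0.17, adjusted p = 0.0016), and the VPA change was 0.49 (adjusted p = 0.058). At 72 h the COL9A3 change was -0.11 with ATRA and -0.24 with ATRA+VPA, neither called. With VPA at 72 h it was -0.57 (adjusted p = 0.073). COL9A2 rose by 0.43 with ATRA at 24 h (adjusted p = 0.033), by 0.68 with ATRA+VPA at 24 h (adjusted p = 0.00081) and by 0.45 with ATRA+VPA at 72 h (adjusted p = 0.032, with overlapping arrays). The ATRA call at 24 h was lost with only the arrays compared (adjusted p = 0.16), without DMSO 24 h replicate 1 (0.30, adjusted p = 0.22) and without ATRA 24 h replicate 1 or 3. The call at 72 h was lost with only the arrays compared (adjusted p = 0.13), without DMSO 72 h replicate 1 (0.30, adjusted p = 0.35) and without ATRA+VPA 72 h replicate 1 or 2. COL21A1, a FACIT gene of vessel walls, was at 22.9 and 22.4 with DMSO at 72 h, 23.9, 30.6 and 37.1 with ATRA, 21.5, 27.9 and 27.2 with VPA, and 48.5, 64.7 and 67.9 with ATRA+VPA. The combination alone was well over the low level. COL21A1 rose 2.57-fold with ATRA+VPA (log2 1.36 ± 0.15, adjusted p = 1.9e-08). With ATRA the rise was 0.40 (adjusted p = 0.044), lost without either DMSO 72 h array or without ATRA 72 h replicate 2 or 3. The interaction at 72 h was 0.81 ± 0.20 (adjusted p = 0.031), lost without any 1 of 7 of the 11 arrays. COL16A1 fell by 0.51 with ATRA+VPA at 72 h (adjusted p = 0.029), from 30.1 and 41.6 with DMSO to 22.7, 26.8 and 24.3, values close to the low level. This call was lost with the covariate of 3'/5' ratios (-0.46, adjusted p = 0.053), without DMSO 72 h replicate 2 (-0.28, adjusted p = 0.44) and without ATRA+VPA 72 h replicate 1 or 3.

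COL13A1 had the largest change of the 32 genes. At 24 h its intensity was 21.5, 19.1 and 19.5 with DMSO, 69.1, 115 and 111 with ATRA, 19.7, 21.5 and 17.5 with VPA, and 73.3, 44.8 and 35.3 with ATRA+VPA. At 72 h it was 18.8 and 17.8 with DMSO, 99.2, 120 and 163 with ATRA, 20.9, 20.3 and 19.6 with VPA, and 92.2, 118 and 124 with ATRA+VPA. All DMSO and VPA arrays were under the low level, and all ATRA-containing arrays at these times were above it. COL13A1 rose 4.62-fold at 24 h (log2 2.21 ± 0.18, adjusted p = 1.7e-10) and 6.51-fold at 72 h (2.70 ± 0.21, adjusted p = 1.9e-11) with ATRA. With ATRA+VPA the rise was 2.37-fold at 24 h (1.25 ± 0.18, adjusted p = 6.2e-06) and 5.78-fold at 72 h (2.53 ± 0.21, adjusted p = 4.4e-11). Since its DMSO means of 20.0 and 18.3 are not shown to be above background, the folds depend on the pseudocount. Raising the pseudocount to 32 brought the log2 changes to 1.31 and 1.64 with ATRA and 0.65 and 1.50 with ATRA+VPA, while those of COL1A1 became 1.49 and 0.45 with ATRA and 1.42 and 0.85 with ATRA+VPA at 24 and 72 h. COL21A1 with ATRA+VPA at 72 h came to 0.75 in that setting. At 24 h the combination gave a lower COL13A1 level than ATRA alone (log2 difference -0.96 ± 0.18, adjusted p = 0.00057), which was not called in a fit of only the arrays compared. The interaction at 24 h was -0.92 ± 0.26 (adjusted p = 0.1).

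COL18A1, the multiplexin whose product lies in vessel and epithelial basement membranes, fell with ATRA and with ATRA+VPA. At 24 h its intensity was 158, 180 and 207 with DMSO, 81.4, 104 and 87.5 with ATRA, 208, 220 and 144 with VPA, and 121, 111 and 92.4 with ATRA+VPA. At 72 h it was 177 and 164 with DMSO, 73.5, 55.1 and 66.5 with ATRA, 167, 145 and 162 with VPA, and 69.9, 93.9 and 65.2 with ATRA+VPA. The ATRA-containing arrays were below every DMSO array at both times, and the VPA arrays overlapped with DMSO. COL18A1 fell 1.98-fold at 24 h (log2 -0.99 ± 0.16, adjusted p = 3.7e-05) and 2.61-fold at 72 h (-1.38 ± 0.18, adjusted p = 7.4e-07) with ATRA. With ATRA+VPA it fell 1.67-fold (-0.74 ± 0.16, adjusted p = 0.0011) and 2.24-fold (-1.16 ± 0.18, adjusted p = 6.8e-06). VPA alone gave -0.01, 0.05 and -0.11 at 6, 24 and 72 h. The related COL15A1 was under the low level in all groups. The short-chain network genes COL8A1, COL8A2 and COL10A1 passed in 0 of 27 tests against DMSO (2 at an unadjusted p under 0.05), against 16.2% of all gene tests. With array weights COL8A2 was called lower at 24 h in each of the 3 treatments, by 0.23 to 0.26 at levels near 24.

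The combination was also set against each single agent. Adding VPA to ATRA gave 2 rises and 0 falls among the 32 genes at 6 h (12% of all genes passed, 7.13% higher and 4.84% lower), 3 rises and 1 fall at 24 h (9.49%, with 4.86% higher and 4.63% lower) and 7 rises and 4 falls at 72 h (20.8%, with 14.6% higher and 6.2% lower). A second quantile normalization moved the split of all genes at 72 h from 1738 higher and 740 lower to 1303 and 1144. The 7 rises at 72 h were COL5A1 (log2 1.79 ± 0.13, adjusted p = 2.9e-11), COL6A2 (1.59 ± 0.21, adjusted p = 1.6e-06), COL6A3 (1.11 ± 0.11, adjusted p = 3.2e-08), COL21A1 (0.97), COL3A1 (0.79), COL1A1 (0.64) and COL6A1 (0.48). The 4 falls were COL14A1, COL1A2, COL2A1 and COL4A6, each between -0.41 and -0.32, at levels near the low level. All 4 were lost with a second quantile normalization, with the covariate of 3'/5' ratios and with only the arrays compared. The split was then 7 rises and 1 fall (of another gene), 8 rises and 0 falls, and 7 rises and 0 falls. Adding ATRA to VPA gave 0 calls at 6 h (0.57% of all genes passed with limma, 0.452% higher and 0.117% lower, and 0 collagen genes had an unadjusted p under 0.05). It gave 4 rises and 2 falls at 24 h (11.9%, with 5.13% higher and 6.74% lower) and 7 rises and 2 falls at 72 h (25.7%, with 12.3% higher and 13.4% lower). At 72 h it raised COL13A1 (2.39), COL6A3 (1.26), COL21A1 (1.20), COL1A1 (0.85), COL6A2 (0.58), COL9A2 (0.43) and COL4A2 (0.34), and lowered COL18A1 (-1.06) and COL5A1 (-0.96). The COL6A2 call was lost without VPA 72 h replicate 1 or 2 or ATRA+VPA 72 h replicate 3, the COL9A2 call without VPA 72 h replicate 2 or ATRA+VPA 72 h replicate 1 or 2, and the COL1A1 rise on adding VPA to ATRA without ATRA 72 h replicate 2. The COL6A2 call and this COL1A1 call were also lost with the mean of all probe sets. These comparisons share the combination arrays. The interaction was called for 0 collagen genes at 6 h (0% of all genes; 1 collagen gene at an unadjusted p under 0.05), 0 at 24 h (0.737%, with 0.0754% higher and 0.662% lower; 6 collagen genes at an unadjusted p under 0.05) and 2 at 72 h (1.92%, with 1.31% higher and 0.611% lower, or 156 and 73 genes, which became 116 and 114 after a second quantile normalization), COL6A3 and COL21A1, both above the sum of the single changes. For COL5A1 at 72 h it was 0.61 ± 0.20 (adjusted p = 0.11).

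Time in DMSO alone moved few members. From 6 to 24 h, 1 rose and 2 fell (15.2% of all genes passed, 5.19% higher and 10% lower), namely COL5A2 (0.40), COL4A1 (-0.49) and COL6A2 (-0.73). Without DMSO 24 h replicate 1, 0 collagen genes were called. From 6 to 72 h, 2 rose and 1 fell (10.6%, with 5.08% higher and 5.5% lower), namely COL9A3 (0.60), COL5A1 (0.47) and COL6A2 (-0.75), and each of the 3 calls was lost without any 1 of the 5 arrays. The log2 3'/5' ratio in DMSO averaged 0.27 at 6 h, 1.05 at 24 h and 1.06 at 72 h. With this ratio as a covariate, 0 collagen genes were called at 24 or 72 h, and the calls over all genes went from 620 higher and 1194 lower to 72 and 114 at 24 h and from 606 and 657 to 245 and 193 at 72 h. The split of all genes moved from 620 higher and 1194 lower to 1320 and 835 at 24 h, and from 606 and 657 to 920 and 641 at 72 h, after a second quantile normalization. COL6A2 in DMSO was at 84.0, 88.9 and 77.2 at 6 h and at 51.4 and 47.0 at 72 h, so its rise with VPA at 72 h brought it to a mean of 112 against 83.4 at 6 h.

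Probe sets of one gene did not always give the same answer. The choice of the brightest probe set uses all arrays, and so favours a probe set that is high in some treated group. For COL1A1, the other 3 probe sets changed by 0.11 to 0.20 with ATRA at 24 h, none of them called, against 2.33 for the brightest, and the mean over its probe sets gave 0.69. With ATRA+VPA these 3 changed by 0.09 to 0.27 at 24 h and -0.08 to 0.19 at 72 h, again none called. Their mean intensities were 16.5, 27.7 and 34.7, against 48.7 for the brightest. For COL13A1 the other probe set rose by 0.79 at 24 h (adjusted p = 4.4e-05) and 0.41 at 72 h (adjusted p = 0.033) with ATRA, against 2.21 and 2.70. Both COL18A1 probe sets fell with ATRA at 72 h, by 1.38 and 1.86 on the log2 scale. All 3 COL5A1 probe sets rose with VPA at 24 h (0.82, 0.94 and 1.56). With VPA its other probe sets stood at 0.33 and 0.39 at 6 h, and at 0.53 and 0.57 at 72 h, against 1.19 for the brightest. With ATRA they stood at -0.40 and -0.42 at 24 h, and at -0.15 and -0.43 at 72 h. None of these values of the other probe sets was called, so the opposite COL5A1 calls at 72 h rest on the brightest probe set. For COL3A1, 2 of 3 probe sets rose with VPA at 72 h (1.04 and 1.27) and the remaining one, at a mean of 14.7, gave 0.03. The other COL6A2 probe set, at a mean of 25.0, gave 0.10 with VPA and 0.09 with ATRA+VPA at 72 h, neither called. COL6A3, COL21A1, COL9A2 and COL9A3 have a single probe set each.

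**Figure D4:**
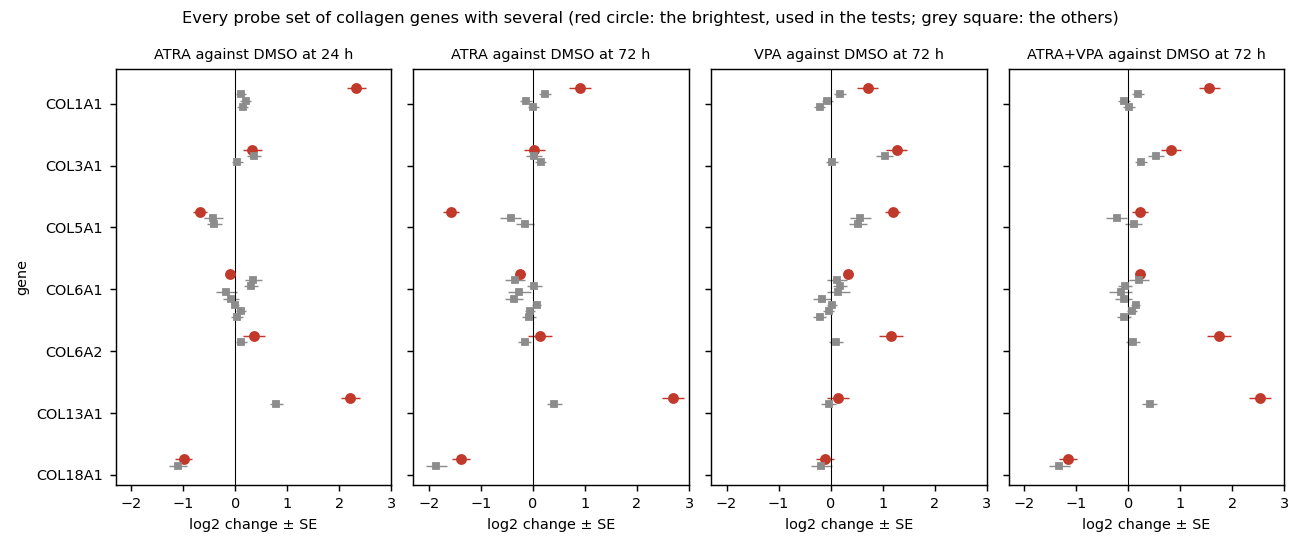
Log2 change ± SE of every probe set of COL1A1, COL3A1, COL5A1, COL6A1, COL6A2, COL13A1 and COL18A1 in 4 comparisons with DMSO (ATRA at 24 h and each treatment at 72 h); red circles are the brightest probe set of a gene, grey squares the others. With ATRA+VPA at 72 h the brightest probe set of COL1A1, COL6A2 and COL13A1 is farthest from 0, at 1.56, 1.74 and 2.53.

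Genes that make, cut, crosslink and bind collagen were read from the same fit. Their counts stand beside all-gene shares at 72 h of 10.7% higher and 20.2% lower with ATRA, 4.51% and 2.15% with VPA, and 14.9% and 16.6% with ATRA+VPA, and at 24 h of 12.5% and 6.03% with ATRA. Of 17 measured genes of chain modification and folding, 5 rose and 1 fell with ATRA at 24 h, 0 rose and 5 fell with ATRA at 72 h, 1 rose with VPA at 72 h, and 3 rose and 1 fell with ATRA+VPA at 72 h. The median log2 change of this list at 72 h was -0.22, 0.09 and 0.08 with ATRA, VPA and ATRA+VPA, against 0, -0.02 and -0.01 over all genes. P4HA2, a subunit of the prolyl hydroxylase that stabilises the helix, rose 2.56-fold with VPA at 24 h (log2 1.35 ± 0.14, adjusted p = 3.3e-08), and PLOD1, a lysyl hydroxylase, rose by 0.85 with ATRA+VPA at 24 h (adjusted p = 0.00071). Of 10 genes of export and propeptide cleavage, at 72 h 1 fell with ATRA, 2 rose with VPA, and 1 rose and 1 fell with ATRA+VPA (medians -0.06, 0.18 and 0.09). PCOLCE, which enhances removal of the procollagen end, fell 2.03-fold with ATRA at 72 h (-1.02 ± 0.11, adjusted p = 2.3e-08) and rose by 0.44 with VPA (adjusted p = 0.012). Its relative PCOLCE2 fell by 0.59 with ATRA+VPA at 6 h (adjusted p = 0.00075). Of the 3 crosslinking genes, 1 rose and 1 fell with ATRA, 1 rose with VPA and 1 rose with ATRA+VPA at 72 h (medians -0.09, 0.23 and 0.01). LOXL2, a lysyl oxidase, rose 7.81-fold with ATRA+VPA at 72 h (2.97 ± 0.16, adjusted p = 8.9e-15), from a mean of 45.8 to 366, and 4.02-fold with VPA. LOXL1 fell 2.46-fold with ATRA at 72 h (-1.30 ± 0.19, adjusted p = 4.8e-06).

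The collagenase and gelatinase list also holds the inhibitors TIMP1, TIMP2 and TIMP3, so its counts mix enzymes with inhibitors. Of its 12 members, 5 rose and 0 fell with ATRA at 72 h, 0 passed with VPA, and 5 rose and 0 fell with ATRA+VPA (medians 0.29, 0.01 and 0.20). TIMP1, which inhibits these enzymes and is on that list, rose 2.31-fold with ATRA at 24 h (1.20 ± 0.12, adjusted p = 1.3e-08), and the membrane-bound protease MMP15 rose 2.05-fold with ATRA at 72 h (1.04 ± 0.19, adjusted p = 9.1e-05). Of 8 collagen receptor genes, 2 rose and 1 fell with ATRA, 2 rose with VPA, and 4 rose with ATRA+VPA at 72 h (medians 0.27, 0.05 and 0.27). MRC2, an endocytic collagen receptor, rose 3.16-fold with VPA at 72 h (1.66 ± 0.16, adjusted p = 1.7e-08) and fell by 0.74 with ATRA (log2 change -0.74, adjusted p = 0.00059). DDR1, a collagen-activated kinase, rose 2.20-fold with ATRA+VPA (1.14 ± 0.12, adjusted p = 5.5e-09). Of 13 basement membrane partners of collagen IV, 2 rose and 2 fell with ATRA, 3 rose with VPA, and 4 rose and 1 fell with ATRA+VPA at 72 h (medians -0.15, 0.33 and 0.15). LAMA4, a laminin chain, rose by 3.09 ± 0.19 with ATRA+VPA at 72 h (adjusted p = 1.4e-13), from a mean of 24.0, near the low level, to 214. NID2, which links laminin to collagen IV, fell 2.63-fold with ATRA (-1.40 ± 0.12, adjusted p = 4.1e-10) and rose 1.91-fold with VPA at 72 h (0.94 ± 0.12, adjusted p = 4e-06). COL5A1, PCOLCE, MRC2 and NID2 thus each fell with ATRA and rose with VPA at 72 h. At 24 h with VPA, 3 of 3 crosslinking genes and 6 of 13 basement membrane partners rose and 0 fell. Rises elsewhere were 3 of 17 for chain modification, 0 of 10 for export, 2 of 12 for the list of collagenases and their inhibitors, and 2 of 8 for receptors. The collagenase list also had 1 fall. Of all genes, 9.66% rose and 2.49% fell in that comparison.

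**Figure D5:**
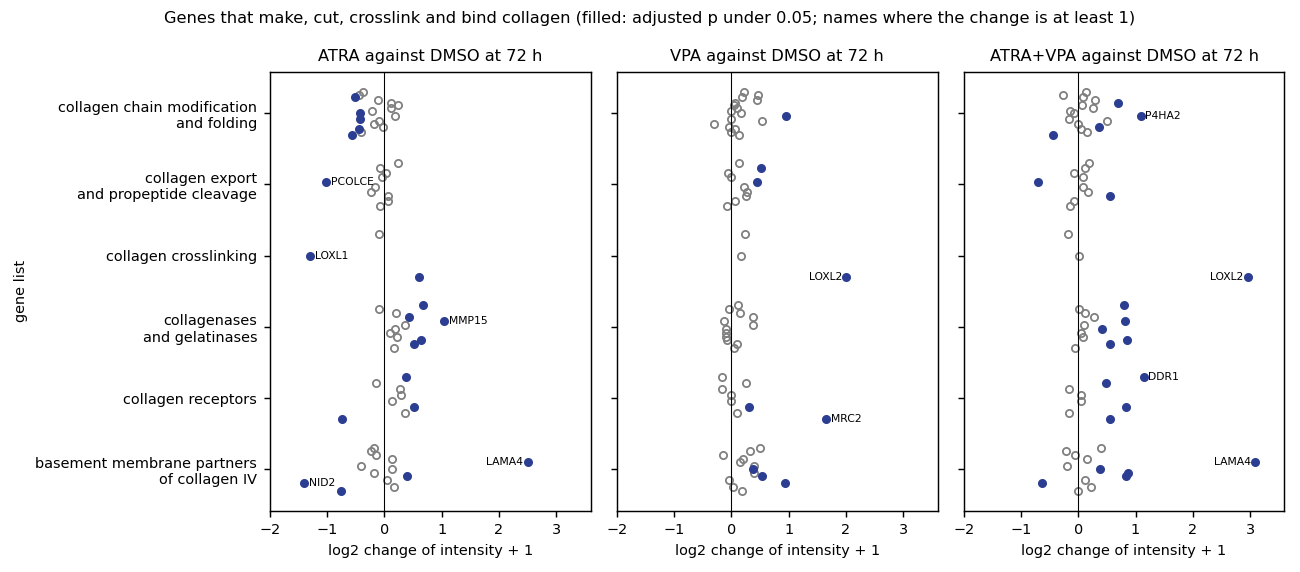
Log2 change at 72 h of each gene on 6 lists of collagen synthesis, processing, crosslinking, degradation, receptors and basement membrane partners, for ATRA, VPA and ATRA+VPA against DMSO; filled points passed an adjusted p of 0.05 and called genes with a change of at least 1 are named. LOXL2 and LAMA4 are the farthest to the right with ATRA+VPA, and the 5 called chain modification genes with ATRA all lie left of 0.

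Markers of the cell type were read on the same arrays. All 9 measured sympathetic neuroblastoma markers were over the low level in every group, and PHOX2A, GATA2, GATA3, MYCN and CHGA had group means of at least 1381. Their summed intensity at 72 h was 26701 to 26894 with DMSO, 24682 to 27090 with VPA, 17418 to 18536 with ATRA and 17526 to 18702 with ATRA+VPA. At that time 1 of the 9 rose and 4 fell with ATRA, 1 rose and 1 fell with VPA, and 1 rose and 5 fell with ATRA+VPA. Of all genes at 72 h, 10.7% rose and 20.2% fell with ATRA. The shares were 4.51% and 2.15% with VPA, and 14.9% and 16.6% with ATRA+VPA. CHGA, a protein of secretory granules, changed by -1.24 with ATRA (adjusted p = 4e-11) and -1.72 with ATRA+VPA (adjusted p = 1.6e-14). The other falls with ATRA were GATA3 (-1.17), DBH (-0.49) and MYCN (-0.38), and the rise was PHOX2A (0.60). A sum of linear intensities follows the brightest markers most, CHGA and GATA3 among them. The part of these markers in the collagen results was not tested. Of 10 fibroblast and mesenchymal markers, PRRX1 and FAP were under the low level in all groups and TAGLN never passed 24.3, while THY1, DCN, LUM and TWIST1 read from 146 to 1985. The summed intensity of these 10 markers was 3457 to 3561 with DMSO at 72 h, 3952 to 4046 with ATRA, 4878 to 5166 with VPA, and 4959 to 5262 with ATRA+VPA. With VPA 3 of the 10 rose at 72 h (4.51% of all genes did) and with ATRA+VPA 5 rose (14.9% of all genes), led by LUM, a collagen-binding proteoglycan (log2 2.46 with VPA, adjusted p = 1.2e-15, and 1.60 with ATRA+VPA, adjusted p = 1.1e-12). With ATRA 1 rose, TWIST1 (0.62, adjusted p = 1.7e-05), and 2 fell, LUM (-0.46, adjusted p = 0.0017) and DCN (-0.29, adjusted p = 0.039). The rises of COL3A1, COL5A1, COL6A2 and COL6A3 with VPA or ATRA+VPA occurred in the same arrays, and the part of these markers in them was not tested. Of 6 epithelial markers 2 rose with ATRA+VPA at 72 h, where their sum was 223 to 250 against 129 to 142 with DMSO. Most Schwann, endothelial and haematopoietic markers were near the low level: their sums at 72 h stayed within 91.6 to 123 over 4 genes, 108 to 141 over 5 genes and 101 to 141 over 5 genes. Those that passed at 72 h were CD14, a monocyte gene with group means of 20.8 to 38.1, by 0.55 with ATRA (adjusted p = 0.0038) and 0.83 with ATRA+VPA (adjusted p = 3.6e-05), PTPRC by 0.31 with ATRA (adjusted p = 0.008) and the Schwann gene ERBB3 by 0.32 with ATRA (adjusted p = 0.045), and the endothelial gene CDH5 at -0.33 with ATRA+VPA (adjusted p = 0.0074).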

How the data were processed

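Intensities of 22930 probe sets on 35 arrays (Affymetrix) were summarised and normalised by RMA before they were deposited by the authors, per the submitters' processing notes. The deposited intensity values are linear, with no version or genome build given in the sources used here. Of these, 19415 probe sets carried exactly 1 symbol in the platform annotation. The brightest probe set by mean log2 value gave 11940 genes. Groups came from the labels.

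Values were taken as log2(intensity + 1) and a mean for each of the 12 groups was estimated in a single limma model (version 3.58.1, R 4.3.3) with 23 residual and 5.5 prior degrees of freedom. Benjamini-Hochberg adjustment ran over the 11940 genes in each of 23 contrasts, with a threshold of 0.05. Fold changes are ratios of intensity + 1, and errors beside log2 changes are standard errors. The procedure was tested on simulated data.

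The members, lists and rules were chosen with earlier results of these data known. Values on each array are given for genes past 0.05 with an absolute log2 change of at least 0.8, and for the brightest genes of each class. COL9A2 and COL16A1, which fell outside that rule, were named after their values were seen. Of each pathway list, the 2 genes with the largest called change are named. Alternatives were the mean of all probe sets, a pseudocount of 32, a second quantile normalization, leaving out the lowest 33.3% of genes, a replicate block, a covariate for the 3'/5' ratio, array weights, a fit of only the arrays compared, and leaving out each array. No set of genes was tested as a list. Sequences are from RefSeq (GRCh38.p14) and were matched by symbol.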

Additional observations from a re-analysis of the deposited data

Results flagged for a closer look

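The effect of a treatment at 72 h was compared with its effect at 6 h within the same fit, and the difference passed for 11 gene and treatment pairs among the named collagen genes. With ATRA, 1 collagen gene was higher and 2 lower in this comparison (17.3% of all genes passed, and 665 higher with 1404 lower became 887 with 933 after a second quantile normalization): COL13A1 by 2.45 on the log2 scale (SE 0.28, adjusted p = 1.4e-07), COL5A1 by -1.37 (SE 0.20, adjusted p = 7.8e-06) and COL18A1 by -1.46 (SE 0.24, adjusted p = 7.5e-05). With VPA, COL3A1 was the single call (2% of all genes passed, 1.24% higher and 0.762% lower), with a difference of 1.58 (SE 0.27, adjusted p = 0.00052). With ATRA+VPA, 6 were higher and 1 lower (17% of all genes passed, 7.9% higher and 9.12% lower). These were COL13A1 at 2.22 (adjusted p = 5.8e-07), COL6A3 at 1.45 (adjusted p = 2.6e-07), COL6A2 at 1.30 (adjusted p = 0.003), COL21A1 at 1.23 (adjusted p = 4e-05), COL1A1 at 1.22 (adjusted p = 0.0017), COL3A1 at 1.03 (adjusted p = 0.0061) and COL18A1 at -1.31 (adjusted p = 0.00021). COL5A1 with VPA, already higher at 6 h, had a difference of 0.67 that missed the threshold (adjusted p = 0.074), but it was called with a pseudocount of 32, a second quantile normalization, the 3'/5' covariate, array weights or only the arrays compared. The COL3A1 call with ATRA+VPA was lost without DMSO 72 h replicate 1.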

How the results depend on the processing

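Among the 43 calls of collagen genes against DMSO, the large ones (COL13A1, COL18A1 and COL5A1 with ATRA, COL5A1 with VPA at 24 and 72 h, COL1A1, COL6A3 and COL13A1 with ATRA+VPA) kept their direction and their side of the threshold under all settings run. The COL1A1 calls rest on its brightest probe set, which the mean of all probe sets also contains. None of the other COL1A1 probe sets was called. The same holds for the COL5A1 calls with ATRA at 24 and 72 h and with VPA at 72 h, where its other probe sets were not called. Over the 13 named genes and all contrasts, 4320 values kept both, 116 lost a call, 67 gained one and 1 reversed: COL6A1 from 6 to 24 h in DMSO with the mean of all probe sets (-0.20, against 0.08). Counts of collagen genes called that moved by over 1.5 times were as follows. With only the arrays compared: VPA at 24 h 1 in place of 5, ATRA+VPA at 6 h 3 in place of 1, VPA added to ATRA at 72 h 7 in place of 11, interaction at 72 h 1 in place of 2, DMSO at 24 h against 6 h 0 in place of 3, VPA effect at 72 h against 6 h 3 in place of 1. With array weights: ATRA+VPA at 6 h 3, interaction at 24 h 4 in place of 0, DMSO at 24 h 5 and at 72 h 5 in place of 3, VPA effect 3. With the mean of all probe sets: VPA at 72 h 3 in place of 5 and DMSO at 72 h 1. With the dimmest 33.3% of genes left out: VPA added to ATRA at 72 h 6 and interaction at 72 h 1. With the 3'/5' ratio: DMSO at 24 h 0, DMSO at 72 h 0 and VPA effect 2. With a pseudocount of 32: DMSO at 72 h 1 and VPA effect 2. With quantile normalization: VPA effect 2. The cause was not tested; the smaller fits have fewer arrays and the filter fewer genes.

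Leaving out 1 array at a time gave counts of 0 to 0 for ATRA at 6 h, 6 to 8 at 24 h and 5 to 8 at 72 h, of 0 to 1, 3 to 6 and 3 to 3 for VPA, and of 1 to 1, 9 to 12 and 7 to 8 for ATRA+VPA. For VPA added to ATRA they were 1 to 2, 3 to 5 and 8 to 10, for ATRA added to VPA 0 to 0, 4 to 5 and 7 to 9, for the interaction 0 to 0, 0 to 1 and 1 to 3, for DMSO 0 to 4 at 24 h and 0 to 0 at 72 h, and for the effect at 72 h against 6 h 3 to 4 with ATRA, 1 to 2 with VPA and 6 to 7 with ATRA+VPA.

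Replicate numbers gave no sign of pairing the arrays as a whole. Across 51 same-numbered pairs the correlation of deviations from group means had a median of -0.01 (-0.30 to 0.35), and 11 were over 0.1. Across 102 pairs with other numbers the median was 0.005 (-0.33 to 0.35), and 25 were over 0.1. Whether some of the arrays shared a culture or a day was not tested. With the replicate block, 297 of 299 named values kept their call, and COL21A1 with ATRA at 72 h (0.38) and COL6A1 with VPA at 72 h lost it.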
